A study of Mus musculus with 15 samples.

Results

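Antigen presentation genes were followed in mouse peritoneal macrophages that had received fatty acid, bacterial lipopolysaccharide (LPS), both or neither. The genes were taken by name: every gene of the normalized table whose symbol starts with H2-, the prefix of the mouse major histocompatibility complex (MHC), together with B2m, Tap1, Tap2, Tapbp, Tapbpl, Erap1, Nlrc5, Cd74 and Ciita. This gave 36 of the 13676 genes in that table, measured by 62 probes, and each gene was read from its brightest probe, judged by the mean of the 15 arrays. By role they are 2 classical class I genes, 15 non-classical class I genes, 6 genes of class I peptide loading and trimming, 9 class II genes, the class II chaperone Cd74, the regulators Nlrc5 and Ciita, and H2-Ke6. H2-Ke6 encodes a steroid dehydrogenase and has no known role in presentation, but it shares the prefix because it lies in the MHC. All 36 genes were above background on at least 3 of the 15 arrays and were tested among 12961 genes.

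The cells were elicited in mice with 3% thioglycollate, an irritant broth, harvested after 4 or 5 days and cultured in medium with 0.5% serum and 5.5 mM glucose. Unstimulated cells (Unstim) received vehicle and gave 3 arrays, from experiments 1, 3 and 4. Fatty acid-loaded cells given vehicle (FA), unloaded cells given LPS at 10 ng/ml for 24 h (LPS) and loaded cells given the same LPS (FA+LPS) gave 4 arrays each, from experiments 1 to 4. LPS is an agonist of Toll-like receptor 4, and by its title the series concerns triglyceride retention in macrophages. The labels name neither the mouse strain nor the fatty acid and do not say whether animals were pooled. H2 genes differ in sequence between strains, so the binding of a probe may depend on the strain.

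Class I molecules show peptides from the cell's own cytosol to CD8+ T cells, and class II molecules show peptides from ingested material to CD4+ T cells. A class I heavy chain pairs with beta-2 microglobulin and is loaded in the endoplasmic reticulum with peptides that the TAP transporter brings in. Class II alpha and beta chains assemble on the invariant chain Cd74 and are loaded in endosomes with the help of DM. NLRC5 drives class I genes and CIITA drives class II genes, and interferon-gamma, encoded by Ifng, raises both sets in macrophages.

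LPS was followed by higher signals across the class I genes and their loading apparatus, whereas class II genes moved in several directions (see the plot of the LPS response of all 36 genes). Differences are of normalized log2 signals, treated minus reference, with SE from limma, and a gene was called at a Benjamini-Hochberg adjusted p below 0.05 over all genes tested. Of the 36 genes, 20 rose and 2 fell with LPS alone, where 8.99% of all genes tested rose and 13.3% fell. For 21 genes every LPS array lay above every Unstim array, which held for 12.3% of all genes. The median difference was 0.39 over the 36 genes and -0.02 over all genes tested. By role, 2 of 2 classical class I genes, 10 of 15 non-classical genes, 4 of 6 loading and trimming genes and 3 of 9 class II genes rose. Among those class II genes, H2-Oa and H2-Ob met the filter of at least 3 arrays above background only through arrays with LPS. The split of calls over all genes moved with the scaling: 40.3% of called genes were higher with quantile normalization and 60.0% with median scaling.

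In fatty acid-loaded cells, 20 of the 36 genes rose and 2 fell when LPS was added (FA+LPS against FA), where 8.4% of all genes tested rose and 11.4% fell. With median scaling 15 of these calls held and 7 were lost. Every FA+LPS array lay above every FA array for 21 of the 36, which held for 9.71% of all genes. Among the 21, H2-Oa, H2-Ob and H2-T18 met the filter of at least 3 arrays above background only through arrays with LPS. H2-Oa and H2-Ob are also among the 20 that rose. Their place in these counts is therefore not independent of that filter. Against unstimulated cells, FA+LPS was called higher for 18, H2-Oa among them, and lower for 2, where 7.57% and 10.8% of all genes were called. With median scaling the counts were 13 and 0. Higher shares of all called genes also moved here, from 42.4% to 75.0% for FA+LPS against FA and from 41.3% to 64.5% for FA+LPS against Unstim. Against Unstim, the H2-Q5 and H2-T22 calls were lost without any of 5 arrays (Unstim 1, 3 or 4, FA+LPS 3 or 4), at 0.35 to 0.49 and 0.48 to 0.73. The Tap2 call was lost without Unstim 3, at 1.59, and the H2-T23 call without Unstim 1, at 0.51. These comparisons share arrays with each other, so their values stand side by side and are not independent.

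**Figure D1:**
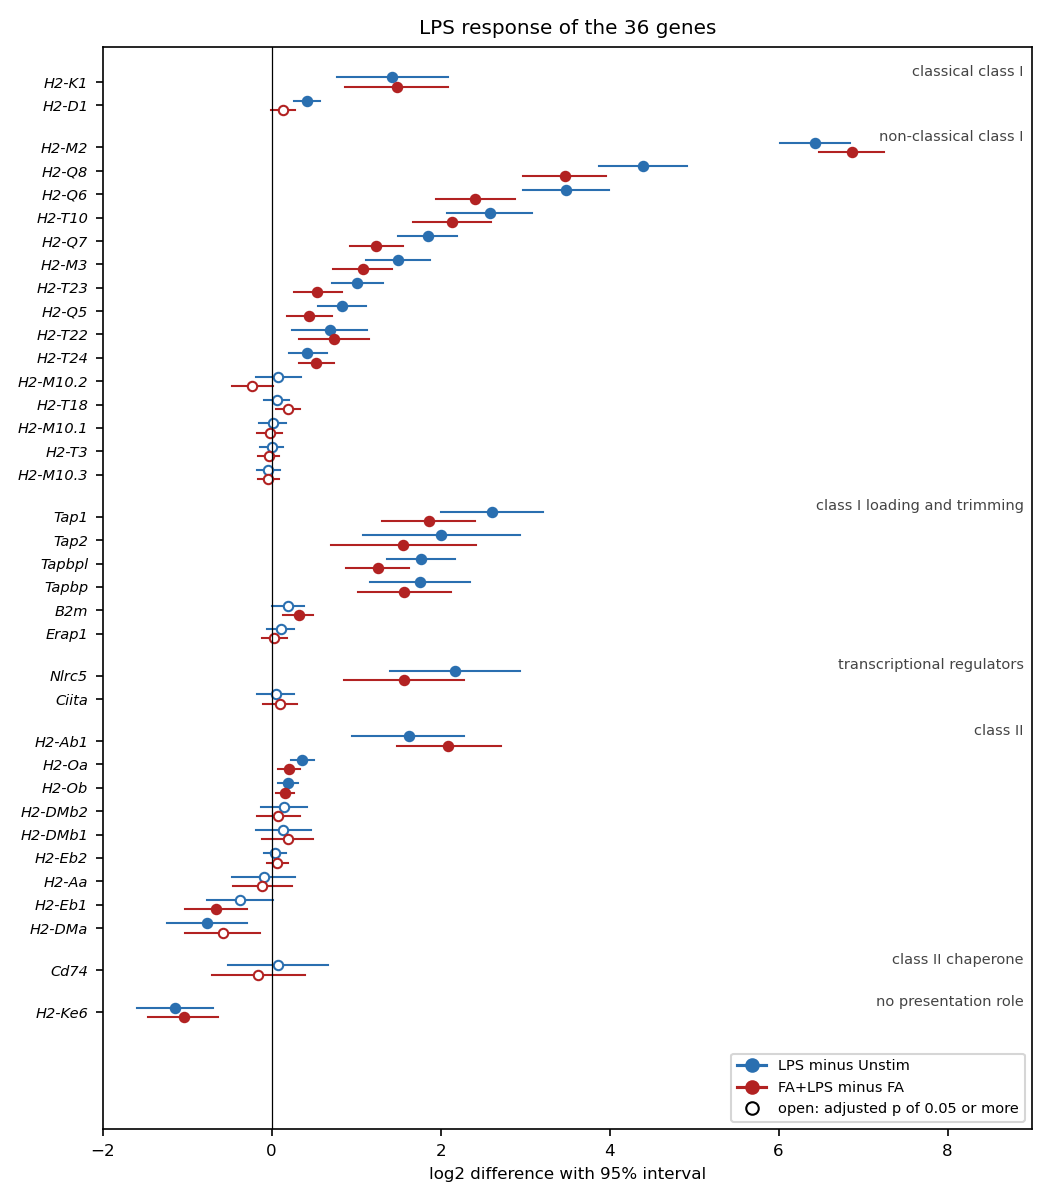
Log2 difference with LPS for the 36 genes, in unloaded cells (LPS minus Unstim, blue) and in fatty acid-loaded cells (FA+LPS minus FA, red), with 95% intervals from limma; filled points passed an adjusted p of 0.05. H2-M2 lies farthest right at 6.43 and 6.87, most class I and loading genes lie above 0, and among class II genes H2-Ab1 stands at 1.62 and 2.09 while H2-Aa lies at -0.09 and -0.11.

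Promoter windows of H2-M2, H2-K1, B2m and Tap1 are printed from RefSeq (GRCm38.p6), which held a window of 300 bases around the start of 25 of the 36 genes. H2-M2 had the highest difference, H2-K1 is a classical class I gene that rose, and B2m is their shared light chain with a small difference. Tap1 rose, and its window held neither of the motifs marked in the others. Whether the motifs bear on the responses was not tested. Each is given 5′ to 3′ in lower case, and capitals mark matches to the NF-kB consensus or to the interferon-response pair, GAAA followed by NN and a second GAAA.
H2-M2, chr17:37483505-37483804, minus strand: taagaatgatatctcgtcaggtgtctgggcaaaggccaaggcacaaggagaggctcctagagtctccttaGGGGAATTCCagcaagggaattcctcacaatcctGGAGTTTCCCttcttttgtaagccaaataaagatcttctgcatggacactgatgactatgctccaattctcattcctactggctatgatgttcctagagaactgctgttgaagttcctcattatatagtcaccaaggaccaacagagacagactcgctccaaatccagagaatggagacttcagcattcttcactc
H2-K1, chr17:34000298-34000597, minus strand: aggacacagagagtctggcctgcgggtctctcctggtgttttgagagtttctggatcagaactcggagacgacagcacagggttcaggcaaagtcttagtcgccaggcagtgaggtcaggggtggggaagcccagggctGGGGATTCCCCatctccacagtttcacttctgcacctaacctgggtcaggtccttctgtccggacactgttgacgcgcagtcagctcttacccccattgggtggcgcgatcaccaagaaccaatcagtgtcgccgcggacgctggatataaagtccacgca
B2m, chr2:122147437-122147736, plus strand: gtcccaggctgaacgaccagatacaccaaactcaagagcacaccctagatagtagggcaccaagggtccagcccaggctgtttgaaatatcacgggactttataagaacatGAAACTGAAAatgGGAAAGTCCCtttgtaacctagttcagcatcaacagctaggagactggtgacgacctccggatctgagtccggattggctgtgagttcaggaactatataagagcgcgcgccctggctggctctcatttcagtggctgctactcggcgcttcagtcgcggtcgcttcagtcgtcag
Tap1, chr17:34187306-34187605, plus strand: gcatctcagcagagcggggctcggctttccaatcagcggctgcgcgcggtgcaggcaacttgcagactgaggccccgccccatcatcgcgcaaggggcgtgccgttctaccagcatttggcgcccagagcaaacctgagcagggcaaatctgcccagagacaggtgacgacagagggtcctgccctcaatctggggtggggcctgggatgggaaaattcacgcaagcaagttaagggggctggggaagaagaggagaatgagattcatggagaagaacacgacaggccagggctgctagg

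The H2-M2 window held 2 matches to the NF-kB consensus, the motif of the factor that Toll-like receptors activate. The H2-K1 window held 1, at position -111 from the start, and the B2m window held a GAAA pair at -139 and an NF-kB match at -126. Matches were sought on either strand, and overlapping matches of a motif were counted once. The NF-kB consensus was found in 7 of 12 windows of genes that rose with LPS and in 2 of 13 windows of the others. Those 7 were H2-D1, H2-K1, H2-M2, H2-M3, H2-Q6, H2-Q7 and H2-T22, all class I genes. Several of them are close copies of each other, so the windows are not independent. By class, the consensus was found in 8 of 16 windows of class I and loading genes and in 1 of 8 class II windows. Among 27025 RefSeq genes the share was 8.18%. The GAAA pair was found in 4 of 16 windows of class I and loading genes (B2m, Erap1, H2-T22 and H2-T23), in 0 of 8 class II windows and in 3.49% of all genes. By response, it was found in 2 of 12 windows of genes that rose with LPS and in 2 of 13 of the others. The STAT-type pair TTCNNNGAA was found in 2 of 25 windows (H2-M3, where it did not meet the NF-kB match, and H2-DMb2) against 8.47% of all genes. CCAAT, the core of the Y box of MHC promoters, was found in 22 of 25 windows against 37.9% of all genes, and in H2-M3 it overlapped the NF-kB match. A match is a description of letters in this window and shows no binding.

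H2-K1 and H2-D1 encode the classical class I heavy chains, which are present on nearly all cells. Signals are listed in the order of experiments, 1, 3 and 4 for Unstim and 1 to 4 for the other groups. H2-K1 read 9.79, 9.81 and 10.26 in Unstim, 9.64, 9.98, 9.51 and 10.08 in FA, 10.65, 11.28, 11.66 and 11.93 in LPS, and 10.71, 10.95, 11.46 and 12.01 in FA+LPS. All 8 arrays with LPS lay above all 7 without it, and in both LPS groups experiment 1 was lowest and experiment 4 highest. The difference was 1.43 ± 0.31 with LPS alone (2.69-fold, adjusted p = 0.00331) and 1.48 ± 0.29 in loaded cells (adjusted p = 0.00146). The other probes of H2-K1 were also called higher with LPS, at 1.49 and 2.15.

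H2-D1 read 13.53, 13.61 and 13.62 in Unstim, 13.53, 13.71, 13.59 and 13.69 in FA, 14.13, 13.88, 13.94 and 14.07 in LPS, and 13.79, 13.74, 13.83 and 13.69 in FA+LPS. Every LPS array lay above every Unstim, FA and FA+LPS array, with the FA+LPS arrays between LPS and Unstim. H2-D1 rose by 0.42 ± 0.07 with LPS alone (1.34-fold, adjusted p = 0.000534), and in loaded cells the difference was 0.14 ± 0.07 (adjusted p = 0.201). Its other 3 probes were not called with LPS, at 0.42, 0.67 and 0.02, and the call was lost with median scaling at 0.54. H2-K1, H2-D1 and the H2-Q and H2-T genes are close copies of each other, so a probe may also read a neighbouring gene.

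Of the 6 loading and trimming genes, Tap1, Tap2, Tapbp and Tapbpl rose with LPS alone, and B2m and Erap1 were not called. Tap1 and Tap2 encode the subunits of the transporter that moves peptides into the endoplasmic reticulum. Tap1 read 6.46, 6.69 and 6.61 in Unstim, 6.48, 6.59, 6.44 and 6.58 in FA, 9.02, 8.82, 9.27 and 9.68 in LPS, and 8.25, 7.49, 8.76 and 9.04 in FA+LPS. Tap2 read 7.95, 7.82 and 8.10 in Unstim, 7.84, 8.17, 7.94 and 8.30 in FA, 9.07, 9.86, 9.95 and 10.98 in LPS, and 8.57, 9.35, 9.78 and 10.78 in FA+LPS. No array with LPS overlapped those without it for either gene. Tap1 rose by 2.61 ± 0.28 with LPS alone (6.11-fold, adjusted p = 6.36e-06) and by 1.86 ± 0.26 in loaded cells (adjusted p = 8.12e-05). Tap2 rose by 2.01 ± 0.43 (4.02-fold, adjusted p = 0.00328) and by 1.56 ± 0.40 (adjusted p = 0.0115). Like H2-K1, Tap2 was lowest in experiment 1 and highest in experiment 4 in both LPS groups. Against unstimulated cells, Tap2 in FA+LPS was higher by 1.66 ± 0.43 (adjusted p = 0.0136).

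Tapbp encodes tapasin, which bridges TAP and the empty class I molecule, and Tapbpl encodes a tapasin-related peptide editor. Tapbp read 8.47, 9.05 and 8.92 in Unstim, 9.53, 8.65, 8.78 and 8.11 in FA, 10.65, 10.47, 10.68 and 10.45 in LPS, and 9.95, 10.15, 10.96 and 10.28 in FA+LPS. Tapbpl read 7.08, 7.15 and 7.26 in Unstim, 7.15, 7.15, 6.83 and 7.22 in FA, 8.91, 8.71, 8.60 and 9.50 in LPS, and 8.26, 8.20, 8.16 and 8.76 in FA+LPS. Both genes were higher on every array with LPS than on any without. With LPS alone Tapbp rose by 1.75 ± 0.28 (3.37-fold, adjusted p = 0.00027) and Tapbpl by 1.77 ± 0.19 (3.41-fold, adjusted p = 6.34e-06). In loaded cells the values were 1.57 ± 0.26 (adjusted p = 0.000376) and 1.26 ± 0.17 (adjusted p = 8.37e-05). The dimmer probe of Tapbpl was not called with LPS, at 0.25.

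B2m encodes the light chain of all these molecules. B2m read 13.90, 13.85 and 13.91 in Unstim, 13.85, 13.87, 13.53 and 13.81 in FA, 14.10, 14.01, 14.17 and 14.03 in LPS, and 13.90, 14.07, 14.13 and 14.22 in FA+LPS. The LPS arrays lay above the Unstim arrays, but the difference of 0.19 ± 0.09 did not pass (adjusted p = 0.174). In loaded cells B2m rose by 0.32 ± 0.08 (adjusted p = 0.0135), and the FA array of experiment 3 was the lowest of all. That difference was 0.07 within slide 1 and 0.60 within slide 3, and with median scaling it was 0.61 and not called. Erap1, the aminopeptidase that trims peptides to class I length, read 6.02 to 6.32 on all arrays, with a difference of 0.11 ± 0.08 (adjusted p = 0.405).

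Nlrc5 encodes the transactivator of class I genes. Nlrc5 read 6.76, 6.68 and 6.71 in Unstim, 6.59, 6.54, 6.63 and 6.81 in FA, 9.13, 8.17, 8.59 and 9.65 in LPS, and 8.40, 7.24, 8.10 and 9.12 in FA+LPS. The arrays without LPS stayed close together, while those with LPS spread widely, with experiment 2 lowest and experiment 4 highest in both groups. Nlrc5 rose by 2.17 ± 0.36 with LPS alone (4.49-fold, adjusted p = 0.00039) and by 1.57 ± 0.33 in loaded cells (adjusted p = 0.00295). Its class II counterpart Ciita read 5.86 to 6.32 on all arrays, near background, and was not called in any comparison, with differences of 0.05 ± 0.10 with LPS alone and 0.10 ± 0.09 in loaded cells.

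**Figure D2:**
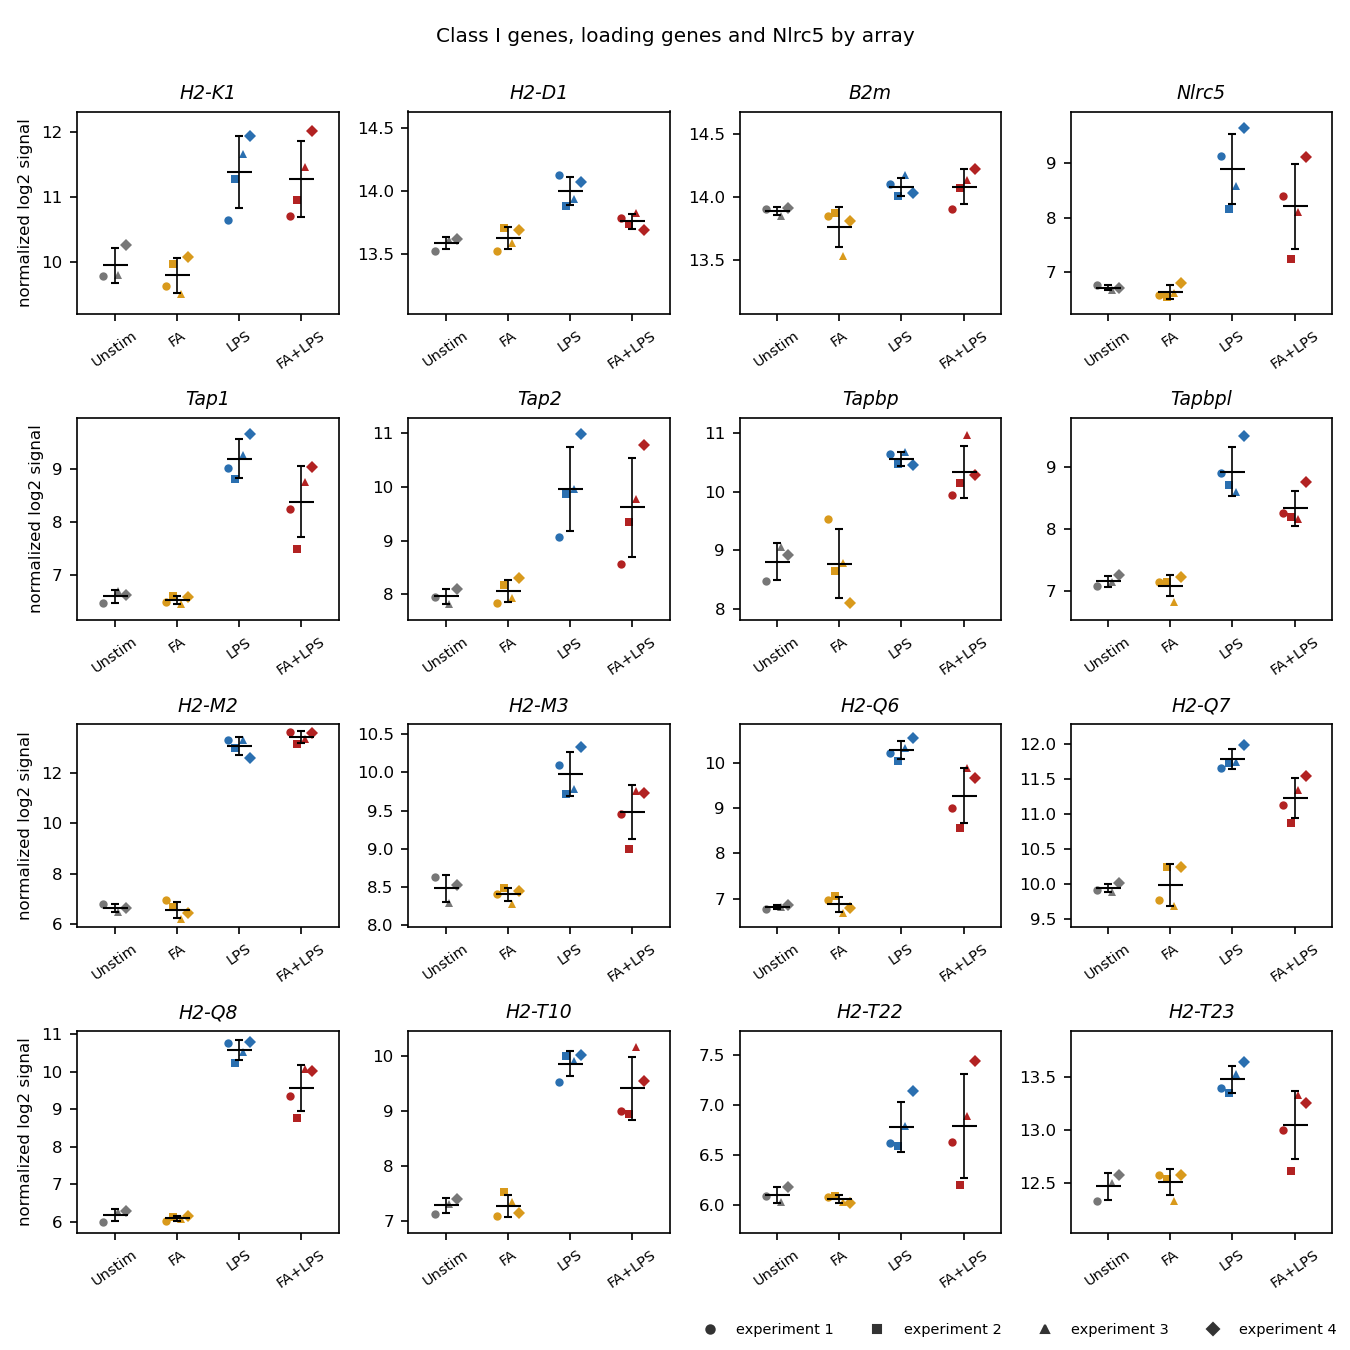
Normalized log2 signal of 16 class I genes, loading genes and Nlrc5 on each array; symbols mark the experiment, and horizontal bars with whiskers give the group mean ± SD (n = 3 for Unstim, 4 for the others). For H2-K1, Tap1, H2-M2 and H2-Q8 every array with LPS lies above every array without it, and for H2-Q6, H2-Q7 and H2-Q8 every FA+LPS array lies below every LPS array.

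Among non-classical class I genes, which vary less between individuals than the classical genes and often have specialised ligands, H2-M2 moved most. H2-M2 read 6.79, 6.48 and 6.64 in Unstim, 6.95, 6.69, 6.20 and 6.44 in FA, 13.33, 13.00, 13.33 and 12.60 in LPS, and 13.64, 13.15, 13.36 and 13.59 in FA+LPS. The 7 arrays without LPS lay near background and all 8 with LPS far above them. H2-M2 rose by 6.43 ± 0.19 with LPS alone (86.3-fold, adjusted p = 1.62e-11) and by 6.87 ± 0.18 in loaded cells (117-fold, adjusted p = 2.38e-12). Within slide 1 and slide 3, the slides that held both groups, the difference between LPS and Unstim was 6.55 and 6.77. H2-M3, which presents N-formylated bacterial peptides, read 8.63, 8.29 and 8.53 in Unstim, 8.40, 8.49, 8.28 and 8.45 in FA, 10.10, 9.71, 9.78 and 10.33 in LPS, and 9.46, 8.99, 9.75 and 9.73 in FA+LPS. It rose by 1.5 ± 0.18 (2.82-fold, adjusted p = 1.78e-05) and by 1.08 ± 0.16 in loaded cells (adjusted p = 0.00019), with no overlap between arrays with and without LPS.

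The H2-Q genes, which encode Qa molecules, all rose with LPS. H2-Q8 read 6.00, 6.26 and 6.29 in Unstim, 6.03, 6.12, 6.06 and 6.15 in FA, 10.77, 10.22, 10.53 and 10.79 in LPS, and 9.36, 8.77, 10.08 and 10.02 in FA+LPS. H2-Q6 read 6.76, 6.81 and 6.85 in Unstim, 6.97, 7.06, 6.68 and 6.78 in FA, 10.22, 10.05, 10.33 and 10.56 in LPS, and 9.01, 8.57, 9.88 and 9.67 in FA+LPS. For both genes the FA+LPS arrays formed a band of their own between the LPS arrays and the arrays without LPS. H2-Q7 read 9.92, 9.88 and 10.01 in Unstim, 9.77, 10.24, 9.69 and 10.24 in FA, 11.66, 11.74, 11.75 and 11.99 in LPS, and 11.13, 10.88, 11.35 and 11.55 in FA+LPS. H2-Q5, a transcribed pseudogene in the RefSeq annotation, read 12.38, 12.28 and 12.34 in Unstim, 12.39, 12.46, 12.07 and 12.51 in FA, 13.16, 13.07, 13.10 and 13.35 in LPS, and 12.70, 12.52, 12.82 and 13.17 in FA+LPS. H2-Q7 kept the same order of groups, whereas for H2-Q5 the FA+LPS array of experiment 4 reached into the LPS range.

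With LPS alone H2-Q8 rose by 4.40 ± 0.25 (21.1-fold, adjusted p = 1.07e-08) and H2-Q6 by 3.48 ± 0.24 (11.2-fold, adjusted p = 6.72e-08). H2-Q7 rose by 1.85 ± 0.16 (3.6-fold, adjusted p = 8.6e-07) and H2-Q5 by 0.83 ± 0.14 (1.78-fold, adjusted p = 0.000321). In loaded cells the same 4 genes rose by 3.47 ± 0.23, 2.41 ± 0.22, 1.24 ± 0.15 and 0.44 ± 0.13. With LPS alone the second probes of H2-Q5, H2-Q6, H2-Q7 and H2-Q8 were called higher too, at 0.87, 3.23, 0.49 and 2.87. In loaded cells they gave 0.51, 2.31, 0.21 and 2.12, and that of H2-Q7 was not called (adjusted p = 0.298). The H2-Q5 call in loaded cells (adjusted p = 0.0196) was lost without the FA array of experiment 3, at 0.35, or without the FA+LPS array of experiment 4, at 0.32. With median scaling H2-Q5 was not called in either, at 1.08 with LPS alone and 1.0 in loaded cells.

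H2-T23 encodes Qa-1, the peptide-presenting ligand of an inhibitory receptor on natural killer cells. H2-T23 read 12.33, 12.50 and 12.58 in Unstim, 12.58, 12.54, 12.33 and 12.58 in FA, 13.40, 13.35, 13.53 and 13.64 in LPS, and 13.00, 12.61, 13.33 and 13.26 in FA+LPS. The LPS arrays lay above all others, and the FA+LPS array of experiment 2 barely cleared the arrays without LPS. H2-T23 rose by 1.01 ± 0.14 with LPS alone (2.01-fold, adjusted p = 9.36e-05) and by 0.54 ± 0.13 in loaded cells (adjusted p = 0.00752). H2-T22 encodes a ligand of some gamma-delta T cells, and its near copy H2-T10 is annotated as a transcribed pseudogene in RefSeq. H2-T10 read 7.14, 7.32 and 7.40 in Unstim, 7.09, 7.54, 7.35 and 7.16 in FA, 9.53, 10.01, 9.91 and 10.02 in LPS, and 9.0, 8.95, 10.17 and 9.55 in FA+LPS. H2-T22 read 6.09, 6.03 and 6.18 in Unstim, 6.08, 6.09, 6.03 and 6.02 in FA, 6.62, 6.59, 6.79 and 7.14 in LPS, and 6.63, 6.20, 6.89 and 7.44 in FA+LPS. For both, all arrays with LPS exceeded all without it, H2-T22 by the smaller margin. H2-T10 rose by 2.58 ± 0.23 (5.99-fold, adjusted p = 1.25e-06) and H2-T22 by 0.69 ± 0.21 (1.61-fold, adjusted p = 0.0276).

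The H2-T22 call with LPS alone was lost without any of 5 arrays (Unstim 1, 3 or 4, LPS 3 or LPS 4), with differences of 0.57 to 0.73, with slide as a block, at 0.66, and with median scaling, at 0.74. In loaded cells H2-T22 rose by 0.74 ± 0.19 (adjusted p = 0.013) and H2-T10 by 2.13 ± 0.22. H2-T24, a gene of the same T region, read 6.20, 6.14 and 6.33 in Unstim, 6.16, 6.31, 6.15 and 6.06 in FA, 6.55, 6.66, 6.70 and 6.66 in LPS, and 6.47, 6.60, 7.0 and 6.74 in FA+LPS. It rose by 0.42 ± 0.10 (1.34-fold, adjusted p = 0.0081) and by 0.53 ± 0.10 in loaded cells (adjusted p = 0.000893). The other 5 non-classical genes, H2-M10.1, H2-M10.2, H2-M10.3, H2-T3 and H2-T18, stayed at 5.76 to 6.61 and were not called in any comparison. The H2-M10 genes are known from vomeronasal neurons and H2-T3 from intestinal epithelium. H2-M10.3 was above background on 12 arrays, H2-M10.1 and H2-M10.2 on 5 each, H2-T3 on 4 and H2-T18 on 3, each of them with LPS. Whether these near-background signals come from the genes named was not tested.

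Class II genes did not move together: H2-Ab1 rose, H2-DMa fell, and their partner chains were not called. H2-Ab1 and H2-Aa encode the beta and alpha chains of the I-A molecule. H2-Ab1 read 9.36, 9.95 and 8.98 in Unstim, 9.44, 9.16, 9.70 and 8.96 in FA, 11.59, 11.07, 11.16 and 10.36 in LPS, and 11.95, 11.26, 11.61 and 10.81 in FA+LPS. Every array with LPS exceeded every array without it, and experiment 4 was lowest in all 4 groups. H2-Ab1 rose by 1.62 ± 0.31 with LPS alone (3.06-fold, adjusted p = 0.0013) and by 2.09 ± 0.29 in loaded cells (4.27-fold, adjusted p = 7.16e-05). Its other probes were also called higher, at 1.38 and 1.36. H2-Aa, measured by 1 probe above background in every group, read 6.77 to 7.68 over all arrays, and its groups overlapped. The H2-Aa difference was -0.09 ± 0.18 with LPS alone (95% interval -0.47 to 0.28, adjusted p = 0.806), against an interval of 0.95 to 2.28 for H2-Ab1. Whether the 2 chains differ in their response was not tested.

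H2-Eb1, the beta chain of the other class II isotype, I-E, read 8.60, 8.99 and 8.31 in Unstim, 8.71, 8.44, 8.74 and 8.04 in FA, 8.27, 8.54, 8.17 and 8.07 in LPS, and 7.79, 8.03, 7.83 and 7.65 in FA+LPS. The FA+LPS arrays lay below all others, while LPS and Unstim arrays overlapped. H2-Eb1 fell in loaded cells given LPS, by 0.66 ± 0.17 on the log2 scale against FA (adjusted p = 0.0113) and by 0.80 ± 0.18 against Unstim (adjusted p = 0.00536), and with median scaling, at -0.28 and -0.60, neither was called. With LPS alone the difference was -0.37 ± 0.18 (adjusted p = 0.194), and with experiment as a block it was called, at -0.42 (adjusted p = 0.0284). Cd74, the invariant chain, read 9.67 to 11.12, with overlapping groups and a difference of 0.07 ± 0.28 (adjusted p = 0.918). H2-Eb2 stayed at 6.10 to 6.33 and was not called in any comparison.

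DM, formed by H2-DMa with a DMb chain, exchanges the invariant chain remnant for antigenic peptides in endosomes, and DO, formed by H2-Oa and H2-Ob, restrains DM chiefly in B cells. H2-DMa read 8.18, 8.56 and 8.02 in Unstim, 8.23, 8.35, 8.64 and 8.28 in FA, 7.79, 7.77, 7.06 and 7.34 in LPS, and 8.29, 8.0, 7.53 and 7.38 in FA+LPS. LPS arrays lay below all Unstim and FA arrays, whereas the FA+LPS array of experiment 1 lay among them. H2-DMa fell by 0.76 ± 0.22 with LPS alone (adjusted p = 0.0217). That call was lost without Unstim 3, LPS 3 or LPS 4, at -0.61, -0.62 and -0.71, and with median scaling, at -0.63, and the second probe gave -0.32 and was not called. In loaded cells the difference was -0.58 ± 0.21 (adjusted p = 0.0643), or adjusted p = 0.0361 with experiment as a block, and within slide 1 it was 0.03. H2-DMb1 read 8.0 to 8.94 and H2-DMb2 8.62 to 9.32, and neither was called in any comparison.

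H2-Oa and H2-Ob lay at the edge of detection, with no unstimulated array above background. Both were above background on 4 of 4 LPS and 4 of 4 FA+LPS arrays, and only through these did they meet the filter of 3 arrays. Their rise with LPS is therefore not independent of that filter. H2-Oa read 5.91, 5.95 and 5.83 in Unstim, 5.97, 5.87, 5.95 and 6.07 in FA, 6.21, 6.28, 6.23 and 6.33 in LPS, and 6.24, 6.21, 6.09 and 6.13 in FA+LPS. H2-Ob read 5.92, 5.97 and 6.03 in Unstim, 5.98, 5.99, 5.95 and 5.87 in FA, 6.22, 6.14, 6.11 and 6.20 in LPS, and 6.10, 6.14, 6.13 and 6.06 in FA+LPS. Their LPS signals were at least 1.18-fold and at least 1.1-fold higher than in Unstim (adjusted p = 0.000618 and 0.0193), where the bound sets the LPS mean against the lowest signals above background on the unstimulated arrays. The H2-Ob call was lost without Unstim 1, Unstim 3 or LPS 1, at 0.17, 0.19 and 0.18. With LPS alone the second H2-Oa probe gave 0.18 and was not called (adjusted p = 0.091). On the FA arrays H2-Oa was above background on 1 of 4 and H2-Ob on 0 of 4. In loaded cells the fitted H2-Oa difference was 0.21 ± 0.06 (adjusted p = 0.0215), a call lost without FA 2, FA 3, FA+LPS 1 or FA+LPS 2, at 0.17 to 0.20. H2-Ob was at least 1.05-fold higher there (adjusted p = 0.0429), a call lost with experiment as a block (adjusted p = 0.0688) and without any of 9 arrays (Unstim 3, FA 2 to 4, LPS 2, LPS 4 or FA+LPS 1 to 3), with fitted differences of 0.13 to 0.17.

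**Figure D3:**
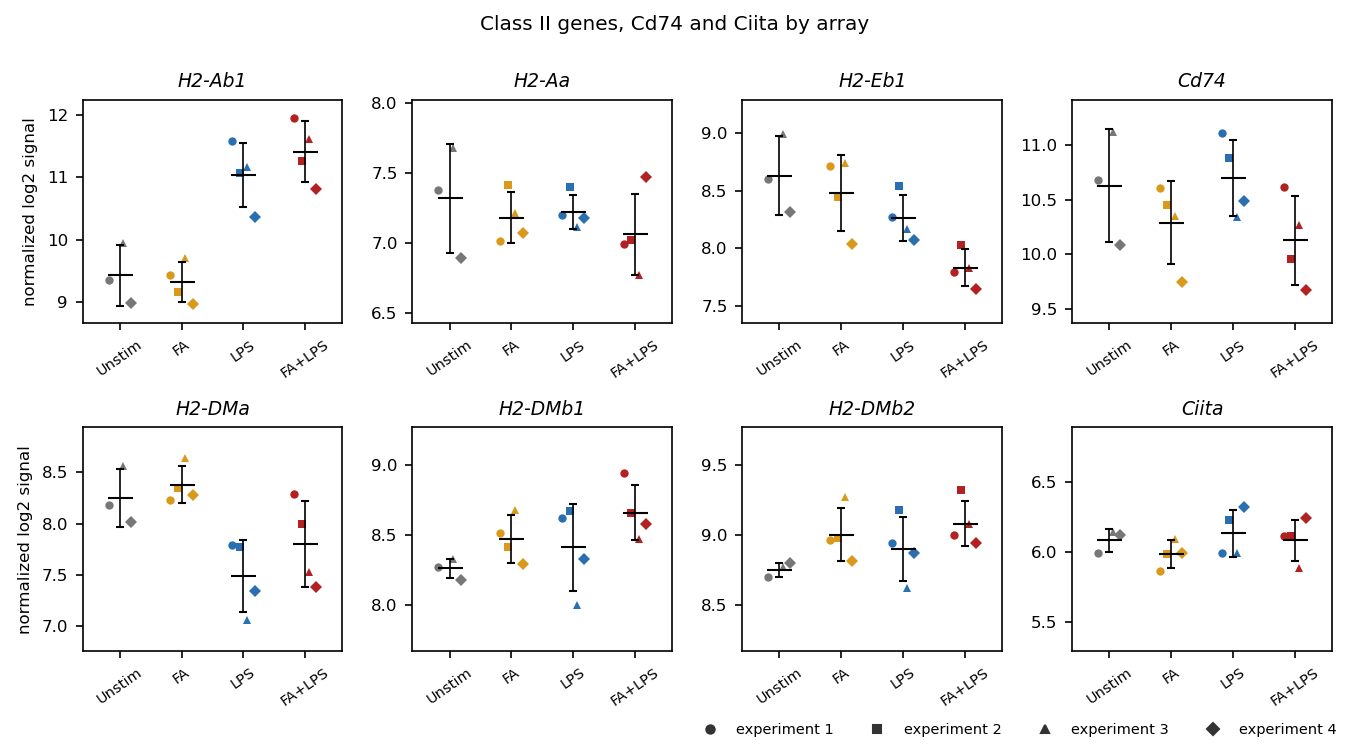
Normalized log2 signal of 6 class II genes, Cd74 and Ciita on each array; symbols mark the experiment, and horizontal bars with whiskers give the group mean ± SD (n = 3 for Unstim, 4 for the others). H2-Ab1 is higher on every array with LPS, H2-Eb1 is lowest with FA+LPS, and the Ciita signals stay between 5.86 and 6.32.

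H2-Ke6, the dehydrogenase gene, fell with LPS. H2-Ke6 read 9.14, 9.27 and 9.22 in Unstim, 9.65, 9.28, 9.43 and 9.07 in FA, 7.75, 8.17, 8.49 and 7.86 in LPS, and 7.76, 8.53, 8.69 and 8.27 in FA+LPS. All arrays with LPS lay below all without it, and the gene fell by 1.14 ± 0.21 with LPS alone (adjusted p = 0.000905) and by 1.04 ± 0.19 in loaded cells (adjusted p = 0.00103). The latter was -0.63 and not called with median scaling.

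Fatty acid without LPS was followed by no call among the 36 genes (FA against Unstim), where 0.00772% of all genes tested were called. At an unadjusted p below 0.05, 1 of the 36 passed, H2-M10.2, where 2.88% of all genes passed. H2-M10.2 was above background on 0 of 3 Unstim arrays and 3 of 4 FA arrays, was at least 1.11-fold higher in FA, and had its highest signal, 6.61, in FA 1. With 1 LPS array and 1 FA+LPS array above background, it met the filter of 3 arrays only with its FA arrays. The lowest of the 36 differences was -0.34, for Cd74.

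Between loaded and unloaded cells given LPS (FA+LPS against LPS), the values furthest apart were those of H2-Q8, H2-Q6 and Tap1, which read lower with fatty acid. None of the 36 genes passed the test in the fit with group as the only term, where 0.687% of all genes did. At an unadjusted p below 0.05, 11 of the 36 were lower and 0 higher, where 3.85% of all genes were lower and 9.8% passed in either direction. For 6 genes, H2-D1, H2-Eb1, H2-Q6, H2-Q7, H2-Q8 and H2-T23, every FA+LPS array lay below every LPS array, which held for 1.6% of all genes, and for 0 every FA+LPS array lay above, which held for 2.88%. H2-Q8 differed by -1.02 ± 0.23 (adjusted p = 0.0602) and H2-Q6 by -1.01 ± 0.22 (adjusted p = 0.0545). Tap1 differed by -0.81 ± 0.26 (adjusted p = 0.206), Tapbpl by -0.59 ± 0.17 (adjusted p = 0.171) and H2-Q7 by -0.56 ± 0.15 (adjusted p = 0.12). The second probes of H2-Q6 and H2-Q8 gave -1.04 and -0.84, but those of Tapbpl and H2-Q7, dimmer and above background on 9 and 7 of the 15 arrays, gave -0.11 and -0.19 (adjusted p = 0.974 and 0.801). These 5 genes were lower with fatty acid in each of the 4 experiments, from -1.41, -1.44, -0.45 and -0.77 for H2-Q8 to -0.53, -0.86, -0.40 and -0.44 for H2-Q7. They are the genes called lower with experiment as a block, which uses the same pairs, so the shared sign is not separate support. How many of all genes were lower in each of the 4 experiments was not counted.

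With experiment as a block, which compares loaded and unloaded cells of the same experiment, those 5 genes were called lower, where 1.06% of all genes were. The adjusted p was 0.00997 for H2-Q8, 0.0182 for Tapbpl, 0.0211 for H2-Q6, 0.0349 for H2-Q7 and 0.0432 for Tap1. Leaving out each of the 15 arrays in that blocked fit kept the H2-Q8 call in 15 of 15 fits, with differences from -1.18 to -0.81. H2-Q6 and Tapbpl were called in 10 of 15, H2-Q7 in 9 of 15 and Tap1 in 5 of 15. The calls were lost without FA+LPS 2 for H2-Q6 (-0.78), H2-Q7 (-0.41), Tap1 (-0.56) and Tapbpl (-0.57), and without LPS 1, LPS 4 or FA+LPS 1 for the same 4 genes. Without LPS 2 the H2-Q6, H2-Q7 and Tap1 calls were lost, without LPS 3 those of H2-Q7 and Tap1, and without FA+LPS 3 those of Tap1 and Tapbpl. The Tap1 call was also lost without Unstim 1, Unstim 3 or FA 1. In the fit without the block, leaving out FA+LPS 4 gave 5 calls, among them H2-Q8 (-1.17), H2-Q6 (-1.13), Tapbpl (-0.73) and H2-Q7 (-0.67), leaving out FA+LPS 3 gave H2-Q8 and H2-Q6, and leaving out LPS 2 gave H2-Q8. Within slides 1, 2 and 3 the H2-Q8 difference was -1.41, -1.11 and -0.45.

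The other class I genes varied in this comparison. H2-T23 differed by -0.43 ± 0.13 (adjusted p = 0.187) and H2-D1 by -0.24 ± 0.07 (adjusted p = 0.136), both without overlap. H2-M3 at -0.50 ± 0.16 and H2-Q5 at -0.36 ± 0.13 were lower in each of the 4 experiments and did not pass either. H2-K1 differed by -0.10 ± 0.29 (95% interval -0.71 to 0.52), while its other probes gave -0.11 and -0.74 (adjusted p = 0.997 and 0.0876). B2m differed by 0.00 ± 0.08 (-0.18 to 0.18) and H2-M2 by 0.37 ± 0.18 (-0.02 to 0.75). Nlrc5 was lower in each of the 4 experiments, by 0.50 to 0.94 on the log2 scale, yet its difference of -0.67 ± 0.33 did not pass either without the block (adjusted p = 0.553) or with it (adjusted p = 0.118). Among class II genes, H2-Eb1 differed by -0.43 ± 0.17 (adjusted p = 0.362), Cd74 by -0.57 ± 0.26 (adjusted p = 0.479) and H2-Ab1 by 0.37 ± 0.29 (adjusted p = 0.84). The interaction, which sets FA+LPS minus LPS against FA minus Unstim, was called for 0 of the 36 genes and for 0.0463% of all genes. At an unadjusted p below 0.05 it was lower for 5 of the 36, where 1.71% of all genes were, with H2-Q6 at -1.07 ± 0.32 (adjusted p = 0.584).

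**Figure D4:**
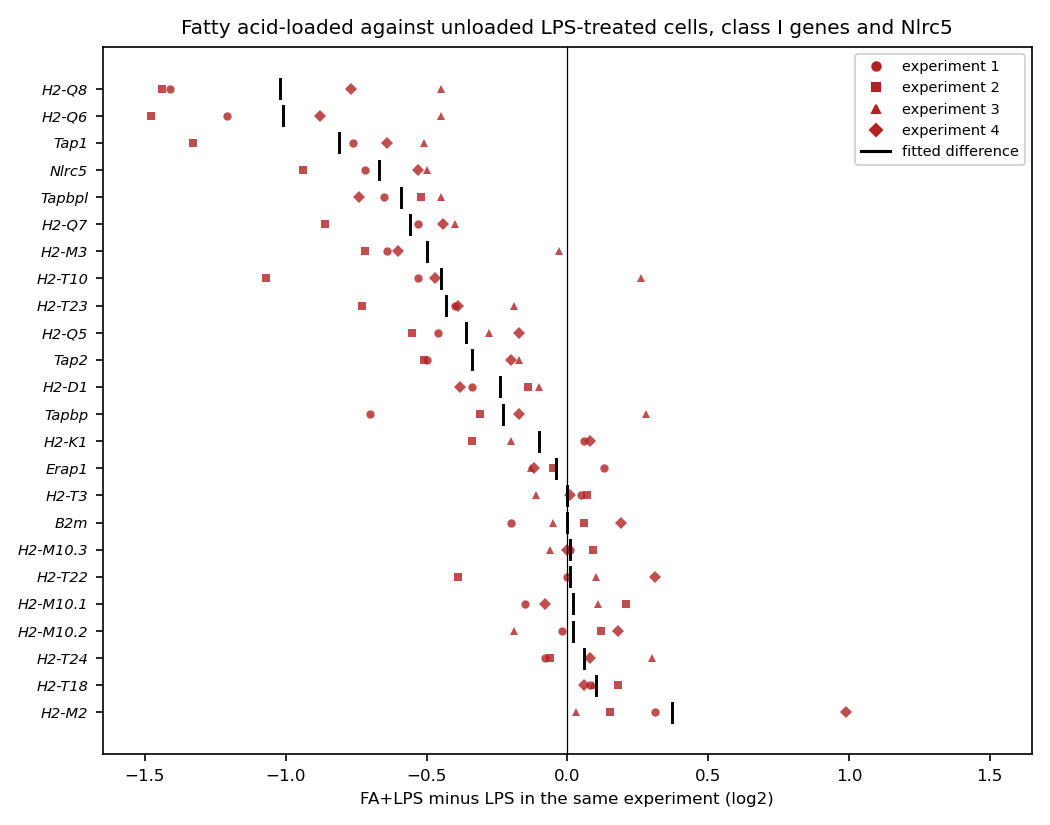
FA+LPS minus LPS in each of the 4 experiments (log2 difference of normalized signals, symbols) and the fitted difference (bars) for 24 genes, the class I, loading and trimming genes with Nlrc5. H2-Q8, H2-Q6, Tap1, Nlrc5, Tapbpl and H2-Q7 lie below 0 in every experiment, while H2-M2 lies above 0 in every experiment and H2-K1 on both sides.

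Genes that act with the presentation genes were counted from lists. Of 10 tested genes of the class I pathway outside the 36, 6 rose with LPS alone, with a median of 1.18, where 8.99% of all genes rose and the median was -0.02. The immunoproteasome subunits, which cut proteins into peptides suited to class I, were highest among them: Psmb8 rose by 2.11 ± 0.15, Psmb10 by 1.93 ± 0.22 and Psmb9 by 1.64 ± 0.34. Their FA+LPS minus LPS differences were -0.43, -0.46 and -0.57, and none passed. Among 4 class I-like genes outside the H2 symbols, Cd1d1, which presents lipids to natural killer T cells, rose by 0.95 ± 0.13. Fcgrt, the neonatal Fc receptor, fell by 1.21 ± 0.24 and the iron regulator Hfe by 0.70 ± 0.14.

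Of 15 other class II pathway genes, 1 rose and 2 fell with LPS alone, a share near that of all genes (8.99% rose and 13.3% fell), with a median of -0.12. Lgmn, an endosomal protease, fell by 1.73 ± 0.14 and the protease Ctsl by 0.83 ± 0.12, while Sppl2a, which cleaves the remnant of Cd74, rose by 1.21 ± 0.22. Of 12 tested genes of interferon signalling, 5 rose and 2 fell, where 8.99% and 13.3% of all genes did. The kinase Jak2 rose by 2.36 ± 0.09, Stat2 by 1.87 ± 0.43 and Irf1, a factor that acts on class I promoters, by 1.47 ± 0.37, whereas Ifng itself gave 0.26 ± 0.12 (adjusted p = 0.152). In FA+LPS against LPS, Jak2 gave 0.04 ± 0.08 and Irf1 -0.59 ± 0.34, and none of these lists' genes passed. Ifnb1 was not analysed here.

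All 7 measured macrophage markers were above background on some or all arrays of every group. Fcgr1 was above background on 11 of 15 arrays and read 5.87 to 7.84, and Lyz2 read 13.46 to 14.54. With LPS alone 3 of the 7 rose (Adgre1 by 1.81, Cd14 by 1.88 and Fcgr1 by 1.06) and 2 fell (Lyz2 by 0.71 and Mertk by 0.85 on the log2 scale). Of all genes, 8.99% rose and 13.3% fell there. B cells and dendritic cells carry much class II. The 6 measured dendritic cell markers summed to 387 to 428 in linear signal over all arrays. Their probes read 5.7 to 6.65, near background, which limits what the sum can show. The 5 that were tested had no call, where 22.3% of all genes were called with LPS alone. Zbtb46, above background on 2 of 15 arrays, was not tested. The 4 measured B cell markers summed to 304 to 334 in Unstim, 316 to 324 in FA, 270 to 296 in LPS and 273 to 302 in FA+LPS, with Cd22 called lower with LPS alone, at -0.43. Other markers moved with the groups: 5 neutrophil markers summed to 568 to 678 in Unstim, 595 to 676 in FA, 836 to 1240 in LPS and 1255 to 2161 in FA+LPS, through S100a8, which rose by 1.09 with LPS alone and was 1.11 higher in FA+LPS than in LPS. Of the other 4 neutrophil markers, Ltf fell with LPS alone, at -0.53, and Mpo, Elane and Cxcr2 were not called. The 6 fibroblast and mesothelial markers summed to 438 to 467 in Unstim, 431 to 452 in FA, 736 to 984 in LPS and 652 to 1075 in FA+LPS, through Dcn, which rose by 2.26 with LPS alone. Their part in the results was not tested, and in such bulk samples fewer cells of a type and less RNA per cell cannot be told apart. On FA 1 the 95th percentile of the signal was 7.77, against 8.53 to 9.57 on the other arrays.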

How the data were processed

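RNA of 15 cultures was hybridised to 1-colour Illumina bead arrays, as the labels state. The authors deposited log2 signals of 45281 probes without normalization between arrays, and a value table of log2 signals for 25784 of them. Its values came back from quantile normalizing those deposited signals, to within 0.000949. No label or header used here names the software, the background treatment or a genome build. The signals came without detection p-values.

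Signals were corrected with normexp (offset 50) and quantile normalized over all probes. A probe was above background where its deposited signal, before normalization, exceeded the 95th percentile of the 19497 probes outside the value table on that array. That percentile lay at 5.54 to 6.08. On the normalized scale of the signals given here, the lowest value above background lay at 6.02 to 6.07, depending on the array. Genes with 1 symbol in the platform annotation were kept where their brightest probe was above background on at least 3 arrays, which left 12961. The number of arrays limits the precision. Models were fitted with limma 3.58.1 (R 4.3.3, lmFit and eBayes, group as the only term, all 15 arrays, 11 residual degrees of freedom). Tests were 2-sided with Benjamini-Hochberg adjustment. The fit was tested on simulated data.

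The labels number arrays by experiment, and the design text calls the 4 experiments independent, so equal numbers pair arrays. Deviations from group means correlated at 0.04 to 0.81 (median 0.22) between same-numbered arrays, 17 of 21 pairs over 0.1, and at a median of -0.07 otherwise. Between LPS and FA+LPS arrays of the same experiment, 1 to 4, the correlations were 0.81, 0.7, 0.56 and 0.71. The fit with group as the only term does not use this pairing. Experiment as a block, slide as a block (slides 1 to 3), other scalings and filters, and arrays left out were alternatives.

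Members with a call have every array's signal in the text, the others ranges. Of the other pathway lists, at most the 3 called genes with the largest absolute difference with LPS, besides Ifng and Irf1, are named. The members, lists and rules were chosen with earlier results of these data known. Promoter windows (RefSeq, GRCm38.p6) were matched by gene identifier. The window first listed for a gene was used.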

Additional observations from a re-analysis of the deposited data

Results flagged for a closer look

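In 4 of 108 groups of 4 arrays, 1 array stood apart from the other 3 by Dixon's criterion, where chance gives about 1 in 20 such groups. B2m read 13.53 in FA 3 against 13.81 to 13.87 on the other FA arrays. H2-T23 read 12.33 on that same array against 12.54 to 12.58. Tapbpl read 8.76 in FA+LPS 4 against 8.16 to 8.26. H2-M10.2 read 6.10 in LPS 3 against 5.86 to 5.89, near background.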

How the results depend on the processing

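The number of the 36 genes called moved by more than 1.5 times in 2 comparisons. For FA+LPS against Unstim it was 13 with median scaling. For FA+LPS against LPS it was 1 with the filter at 7 arrays above background, 5 with experiment as a replicate block, 2 with slide as a block, and 0 to 5 when single arrays were left out (without LPS 2, 1; without FA+LPS 3, 2; without FA+LPS 4, 5). Of 64 calls of single genes, 46 held with median scaling, 63 with the replicate block, 60 with the slide block, 63 on the authors' value table, 56 with only the groups compared, and 57 to 64 without single arrays. The blocked fit changed no call beyond those given in the report. In sign, 1 value was reversed, H2-DMa in FA+LPS against FA within slide 1, at 0.03. In size, 20 of 64 called differences moved within slide 1, 6 of 22 within slide 2 and 28 of 64 within slide 3. A difference was taken to move where it changed by at least the gene's SD within groups. Over all genes, median scaling called 927, 764, 925, 6 and 0 genes in LPS and FA+LPS against Unstim, FA+LPS against FA, FA+LPS against LPS and the interaction, in place of 2893, 2376, 2567, 89 and 6. For FA+LPS against LPS the count was 344 with the replicate block, 167 with the slide block, 12 with only the groups compared and 57 to 186 without single arrays. The interaction gave 20, 1 and, without single arrays, 1 to 19, and FA against Unstim gave 3 with the replicate block in place of 1. The blocked fits without single arrays were chosen after the blocked fit had been seen. The causes were not tested. Signals of H2-Oa, H2-Ob, Ciita, Erap1, H2-Eb2, H2-T3, H2-T18 and the H2-M10 genes near background limit what their probes can show. Signals of H2-M2, H2-Q8, H2-T22 and H2-T24 lay near background on the arrays without LPS, which limits the precision of their folds.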
